A study of Mus musculus with 8 samples.

Results

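Oxidative phosphorylation genes code for the protein complexes of the inner mitochondrial membrane that carry electrons to oxygen and make ATP. They were taken here as every gene of the deposited normalized set whose symbol starts with Nduf, Uqcr, Atp5, mt-Nd, mt-Co, mt-Cytb or mt-Atp, or with Cox and a digit from 4 to 8, together with *Sdha*, *Sdhb*, *Sdhc* and *Sdhd*. This gave 101 of 16889 genes, of which 89 are coded in the nucleus and 12 in the mitochondrial genome. All 101 passed the filter on low counts and were tested. Another 16 genes of the count files have such symbols and are not in the normalized set. They are 11 processed pseudogenes and the 5 protein-coding genes *Cox6a2*, *Cox7b2*, *Cox8b*, *Cox8c* and *mt-Atp8*, and none had more than 18 counts in any library.

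Complex I takes electrons from NADH and complex II takes them from succinate, and both pass them to coenzyme Q. Complex III hands them on to cytochrome c and complex IV to oxygen, and complexes I, III and IV pump protons out of the mitochondrial matrix. Complex V, the ATP synthase, lets the protons flow back through a ring of c subunits and uses the rotation to make ATP in its F1 head. Brain endothelial cells (ECs) make much of their ATP by glycolysis. The mitochondrial genome codes for some core subunits of the proton-moving complexes, and the nucleus codes for the rest.

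The libraries came from ECs of P9 mouse brains, 1 library from each of 4 Mutant and 4 Wild type pups. Mutant pups carried the R26 GT-Map2k1-GFP/+ allele, which expresses Map2k1 K57N, a constantly active form of the kinase MEK1, once Cre has acted, and Tg-Cdh5CreER+/-, a tamoxifen-activated Cre under an endothelial promoter. Wild type pups were littermates labelled only as wild type, tamoxifen was given at P1, and ECs were collected with beads that bind CD31. Recombination is mosaic, so a Mutant library mixes ECs with and without the active kinase, and the study asked how the mutant kinase alters EC transcripts.

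Between 24833373 and 34196955 reads were counted on genes in the Mutant libraries, and between 28146348 and 32208421 in the Wild type libraries. *Map2k1* itself lay between 12692 and 18734 scaled counts in the Mutant libraries and between 1506 and 1762 in the Wild type libraries. Scaled counts are counts adjusted for library size by the TMM method, and they compare 1 gene between libraries. The 10 endothelial markers summed to 363544 to 440462 scaled counts in the Mutant and 342045 to 414596 in the Wild type libraries, which overlapped. By gene, 3 were higher, *Cdh5* (log2 fold change 1.11), *Emcn* (0.82) and *Pecam1* (0.53). Another 3 were lower, *Kdr* (-0.59), *Cldn5* (-0.47) and *Tek* (-0.44), and 4 did not pass, so the sum hides changes in both directions. Red blood cell markers were apart, at 2670 to 8545 in the Mutant and 15921 to 27602 in the Wild type libraries, and 7 of the 8 were lower. Astrocyte markers summed to 18553 to 22226 against 11036 to 13118, of which *Gja1*, which ECs also express, had 17396 to 21700 against 9811 to 11857. Of the 7 astrocyte markers 1, *Gja1*, was higher and 1, *Aldh1l1*, was lower (-0.96), and the list had a median log2 fold change of -0.58. The sums of pericyte and smooth muscle markers (27360 to 45804 against 24239 to 46297), microglial markers (3681 to 14587 against 3662 to 15456) and neuronal markers (826 to 1343 against 969 to 2361) overlapped. By gene, 3 of the 14 pericyte and smooth muscle markers were higher, *Abcc9* (1.78), *Kcnj8* (0.81) and *Tagln* (0.73), and 0 of the 8 microglial markers passed (0 at an unadjusted p under 0.05, 0 by DESeq2). Of the 8 neuronal markers 4 were lower, *Snap25*, *Tubb3*, *Stmn2* and *Neurod1*, and *Nefl* was higher (2.46), with a median of -1.34. These markers were named after their values were seen. The part of these cells in the values below was not tested, and in bulk RNA fewer cells of a type and less RNA per cell cannot be told apart.

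At an adjusted p under 0.05, 25 of the 101 genes were higher in the Mutant ECs and 6 were lower, and 70 did not pass the test. With upper quartile normalization in place of TMM, 17 were higher and 9 lower. Over all 16887 genes tested, 21.5% were higher and 22.9% were lower. The share of oxidative phosphorylation genes that was higher, 24.8%, was thus near that of all genes, and the share that was lower was 5.94%. In a fit limited to the 11424 genes with a mean of at least 100 counts, 27.0% of genes were higher and 27.1% were lower. The adjusted p is the Benjamini-Hochberg value of edgeR's quasi-likelihood test over all genes, and log2 fold changes are Mutant over Wild type, with the standard error (SE). The median log2 fold change of the 101 genes was 0.11, against -0.02 over all genes tested, and 69 had a fitted value above 0. All 4 Mutant libraries lay above all 4 Wild type libraries for 24 genes, and below them for 6, while 20.6% and 21.9% of all genes did so. With a further limit of a 2-fold change, 2 mitochondrial-coded genes were higher, against 5.9% of all genes, and 0 were lower, against 8.05% (9 had an unadjusted p under 0.05 in that direction at any fold, and DESeq2 also called 0 past 2-fold). Both genes lie in a stretch of the mitochondrial genome with an almost exact nuclear copy, described further on, and had 17 to 83 counts per library. The changes of this gene family in these libraries were therefore small: without the 5 genes of that stretch the fitted values lay between -0.54 and 0.76. The libraries mix ECs with and without the active kinase, so the size of a change within recombined ECs was not measured.

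**Figure D1:**
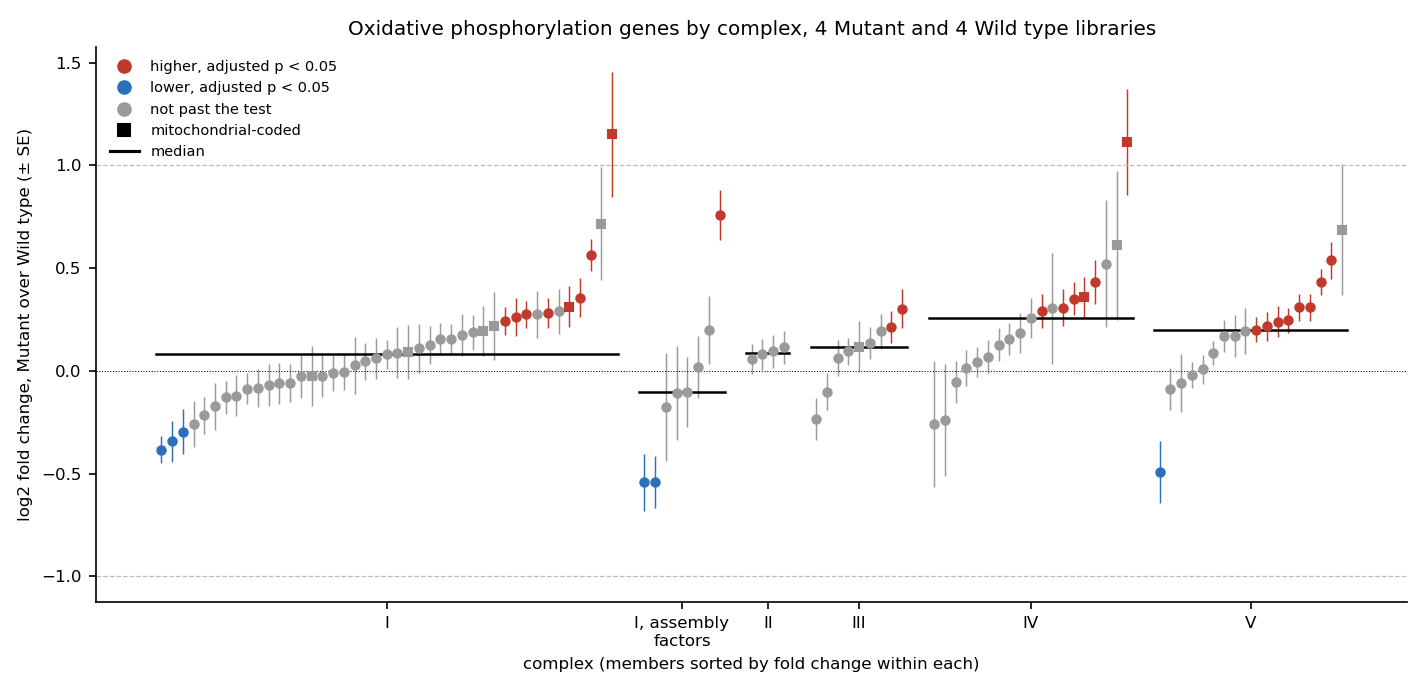
Log2 fold change of each of the 101 genes, Mutant over Wild type, with the standard error, sorted within each complex (I, assembly factors of I, II, III, IV and V). Red points were higher and blue points lower at an adjusted p under 0.05, grey points did not pass, squares are mitochondrial-coded, black bars are medians and dashed lines mark a 2-fold change. Only 2 squares, *mt-Nd4l* and *mt-Co3*, lie past 2-fold, and complex V has 8 red points.

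By complex, the medians ran from -0.10 for the 8 complex I assembly factors to 0.26 for complex IV. Over the nuclear-coded genes alone the median was 0.17 for complex IV and 0.20 for complex V. Complex V had the largest share of genes that were higher, with 8 of 18 higher and 1 lower. Complex IV had 6 of 19 higher and 0 lower (0 at an unadjusted p under 0.05, and 0 by DESeq2). Complex I had 8 of 43 higher and 3 lower, and complex III had 2 of 9 higher and 0 lower (1 lower at an unadjusted p under 0.05, 0 by DESeq2). None of the 4 genes of complex II passed in either direction, with 0 at an unadjusted p under 0.05 and 0 by DESeq2. Counted by genome, 21 of the 89 nuclear-coded genes were higher and 6 lower, with a median of 0.09. Of the 12 mitochondrial-coded genes 4 were higher and 0 lower (0 at an unadjusted p under 0.05, 0 by DESeq2), with a median of 0.34. The 5 of them in the copied stretch, which had few counts, had a median of 0.72 with 2 higher. The other 7 had a median of 0.19 with 2 higher. Differences between complexes were not tested, since the genes of a complex are not replicates.

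**Figure D2:**
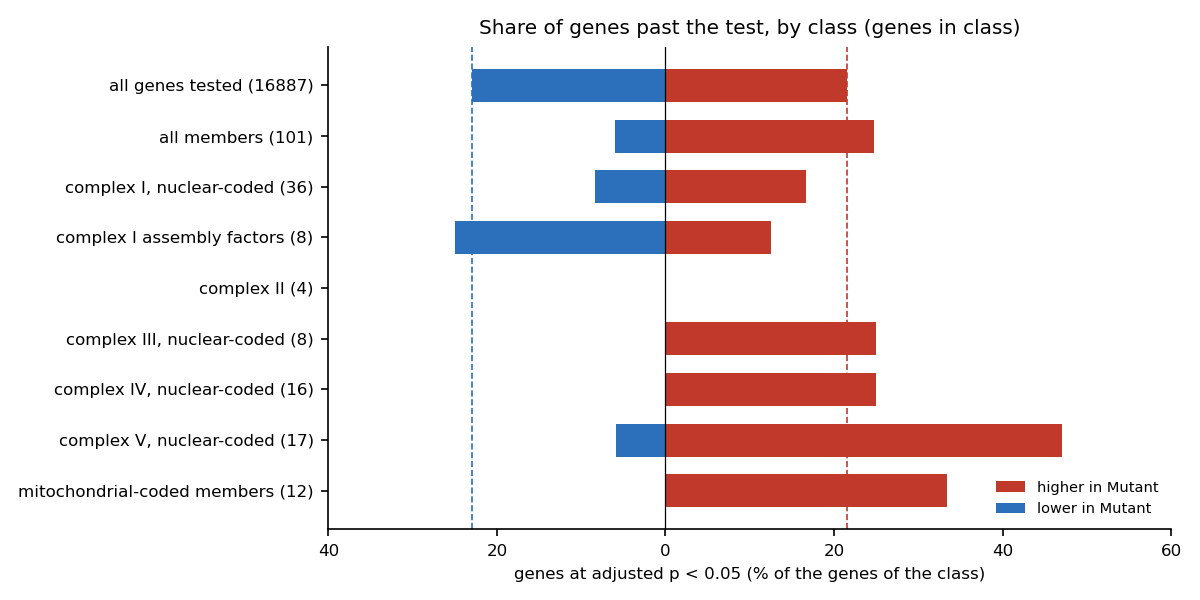
Share of genes at an adjusted p under 0.05, higher (red, to the right) and lower (blue, to the left) in the Mutant libraries, for all genes tested, all 101 members and each class, with the number of genes in brackets and dashed lines at the shares of all genes. Nuclear-coded complex V reaches 47.1% higher, while complex II has no gene past the test.

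The genes of the ATP synthase were grouped by the part of the enzyme they build. The c ring, through which protons pass, is built from 1 protein that 3 genes code for, and all 3 were higher. *Atp5g1* (chr11:96068852-96075670 of GRCm38) had 1081, 1132, 1233 and 1358 scaled counts in the 4 Mutant libraries and 857, 848, 851 and 757 in the Wild type libraries. The groups did not overlap, and the log2 fold change was 0.54 ± 0.09 (SE, adjusted p = 0.000775). *Atp5g3* (chr2:73908447-73911326) had 3555, 3706, 4092 and 3891 scaled counts in the Mutant libraries against 2879, 2806, 2721 and 2881, again with no overlap (0.43 ± 0.06, adjusted p = 0.000413). *Atp5g2* (chr15:102662864-102672352), named after its values were seen, had 1995, 1789, 1836 and 2010 against 1690, 1669, 1446 and 1658 scaled counts (0.24 ± 0.07, adjusted p = 0.0234). Its groups did not overlap either, but the call was lost under 2 of the 17 alternatives. Among them was the fit without Wild type replicate 3, its lowest library (adjusted p = 0.0603). Of its 100-base windows, 34.7% are also found in transcripts of another gene.

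Compared per length, in TPM (counts divided by gene length and brought to the same total in each library), *Atp5g3* was the main source of c subunit transcripts. It made up 55.8% ± 2.05 (SD, n = 4) of the TPM of the 3 genes in the Mutant libraries and 53.3% ± 0.997 (SD, n = 4) in the Wild type libraries. *Atp5g2* gave 36.4% ± 2.17 and 39.7% ± 1.29 and *Atp5g1* gave 7.80% ± 0.513 and 6.96% ± 0.545 (SD, n = 4 each). The ranges of the groups overlapped for each of these shares. The summed level of the 3 genes was 358 to 401 TPM in the Mutant and 304 to 312 TPM in the Wild type libraries.

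The 3 c subunit genes moved together, so the 100 bases before their start sites are shown, with matches to the motifs searched in capitals. Sequences are those of RefSeq for GRCm38.p6, written 5′ to 3′ along the gene, and all 3 genes lie on the minus strand. The positions are chr11:96075632-96075731 for *Atp5g1*, chr15:102671048-102671147 for *Atp5g2* and chr2:73911327-73911426 for *Atp5g3*. The start sites used for *Atp5g1* (chr11:96075631) and *Atp5g2* (chr15:102671047) lie inside the gene ranges given above and not at their outer 5′ ends. Part of the bases shown for these genes is therefore within the annotated gene.
Atp5g1: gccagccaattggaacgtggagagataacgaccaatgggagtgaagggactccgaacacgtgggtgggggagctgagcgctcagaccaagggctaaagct
Atp5g2: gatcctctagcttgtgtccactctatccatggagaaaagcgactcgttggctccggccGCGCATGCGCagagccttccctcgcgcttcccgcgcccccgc
Atp5g3: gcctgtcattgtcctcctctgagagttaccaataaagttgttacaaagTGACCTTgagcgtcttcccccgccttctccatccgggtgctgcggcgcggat
The capitals in *Atp5g2* are the letters GCATGCGC, bound by NRF1, on both strands in an overlapping pair, and those in *Atp5g3* are AAGGTCA, bound by estrogen-related receptors, on the opposite strand. *Atp5g1* holds no match in the 300 bases searched, so the 3 promoters share none of these motifs.

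The catalytic head makes the ATP. *Atp5b*, its catalytic subunit (chr10:128083273-128090391), had 21622, 22374, 22165 and 23574 scaled counts in the Mutant and 18196, 18814, 17536 and 17902 in the Wild type libraries. *Atp5a1*, which alternates with it in the head, had 17428, 17170, 16592 and 17023 against 14285, 14361, 13346 and 13089. Both were apart in all libraries, at a log2 fold change of 0.31 ± 0.07 each (adjusted p = 0.00351 and 0.00352), and kept the call under all 17 alternatives. Of the remaining head subunits *Atp5d* was higher (0.20 ± 0.06, adjusted p = 0.0227), while *Atp5c1*, the rotating shaft, and *Atp5e* had fitted values of 0.09 ± 0.06 and -0.09 ± 0.10 and did not pass. The *Atp5d* call was lost under 5 of the 17 alternatives (adjusted p of up to 0.0846), among them without Wild type replicate 2, 3 or 4.

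In the peripheral stalk, which holds the head still, *Atp5f1* (0.25 ± 0.06, adjusted p = 0.00876) and *Atp5o* (0.22 ± 0.07, adjusted p = 0.0279) were higher. Their partners *Atp5h* and *Atp5j* had fitted log2 fold changes of -0.02 ± 0.06 and 0.01 ± 0.07. The *Atp5o* call was lost under 4 of the 17 alternatives (adjusted p of up to 0.0828), among them without Wild type replicate 3 or 4. Of its windows, 27.9% occur in transcripts of other genes. None of the 5 other membrane subunits, *Atp5j2*, *Atp5k*, *Atp5l*, *Atp5mpl* and *mt-Atp6*, passed the test (0 at an unadjusted p under 0.05, 0 by DESeq2). *Atp5s*, also called factor B, was the only gene of the complex that was lower. It had 151, 144, 114 and 119 scaled counts in the Mutant and 190, 205, 156 and 190 in the Wild type libraries, apart in all libraries (-0.49 ± 0.15, adjusted p = 0.0221). That call was lost under 5 of the 17 alternatives, at adjusted p-values of up to 0.0668. Among them were the fits without Mutant replicate 3 or 4 or Wild type replicate 1 or 2.

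Summed over the 17 nuclear-coded genes of complex V, the Mutant libraries held 66484 to 69817 scaled counts and the Wild type libraries 54262 to 58664. Per length the sums were 3029 ± 135 TPM and 2726 ± 44.9 TPM (SD, n = 4 each). The groups were apart on both scales. A sum weighs genes by their counts, and *Atp5b* and *Atp5a1*, both higher, hold much of the scaled counts. Of the 17 genes 8 did not pass the test and 1 was lower, so the sum does not describe each gene.

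**Figure D3:**
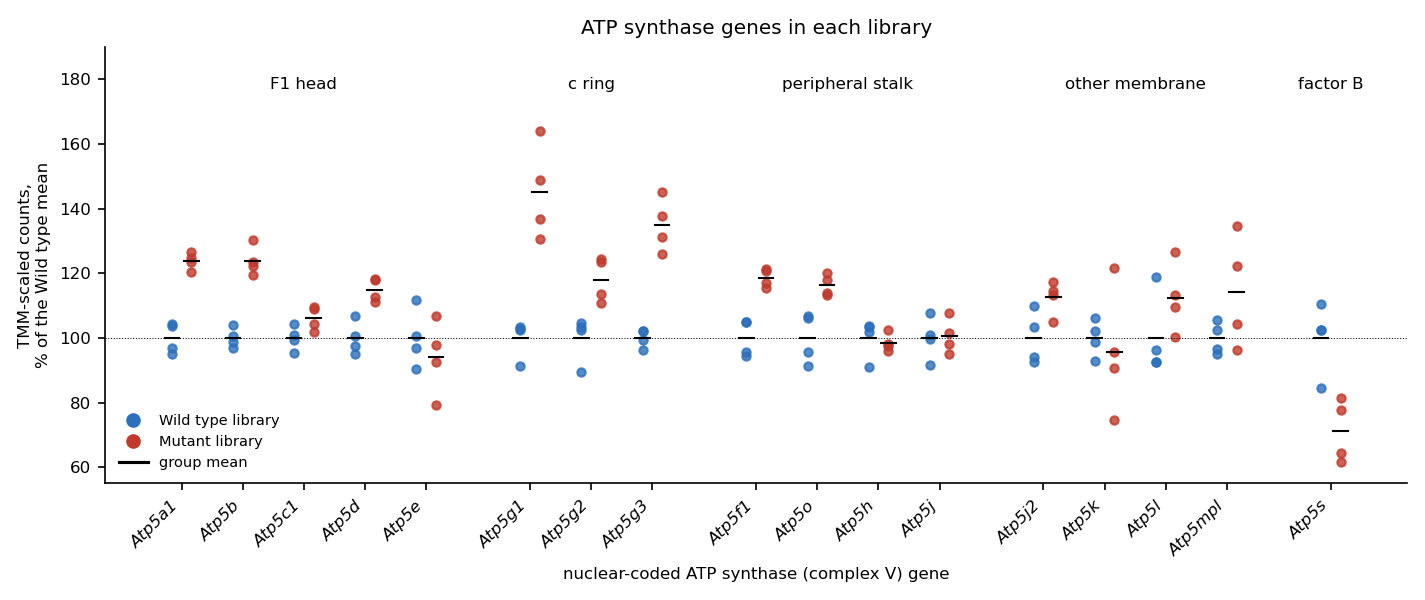
TMM-scaled counts of the 17 nuclear-coded ATP synthase genes in each library, as a percentage of the Wild type mean of the gene, by part of the enzyme (blue, Wild type; red, Mutant; black bars, group means). The c ring genes *Atp5g1* and *Atp5g3* stand highest and *Atp5s* lowest, and no red point overlaps a blue one for *Atp5a1*, *Atp5b* and the c ring.

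In complex I the pair of subunits that oxidises NADH moved in opposite directions. *Ndufv1*, which binds NADH and its flavin (chr19:4007497-4012806), had 2139, 1997, 2114 and 1945 scaled counts in the Mutant and 2812, 2772, 2576 and 2521 in the Wild type libraries. All Mutant libraries were below all Wild type libraries, at -0.38 ± 0.07 (adjusted p = 0.000985), and the call held under all 17 alternatives. *Ndufv2*, its iron-sulfur partner (chr17:66078795-66101559), named after its values were seen, had 1148, 1136, 1261 and 1163 against 1059, 1098, 857 and 911 scaled counts. It was higher by 0.26 ± 0.09 (adjusted p = 0.0394), with no overlap, but lost the call under 6 of the 17 alternatives, at adjusted p-values of up to 0.0991. Among them were the fits without Mutant replicate 2 or 3 or Wild type replicate 3 or 4. Within each library the TPM of *Ndufv1* was 138% ± 7.03 (SD, n = 4) of that of *Ndufv2* in the Mutant and 216% ± 16.1 in the Wild type libraries. The lowest Wild type ratio, 199%, was above the highest Mutant ratio, 147%. That follows from the 2 genes being apart in opposite directions, so the ratio is no further support for either call.

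**Figure D4:**
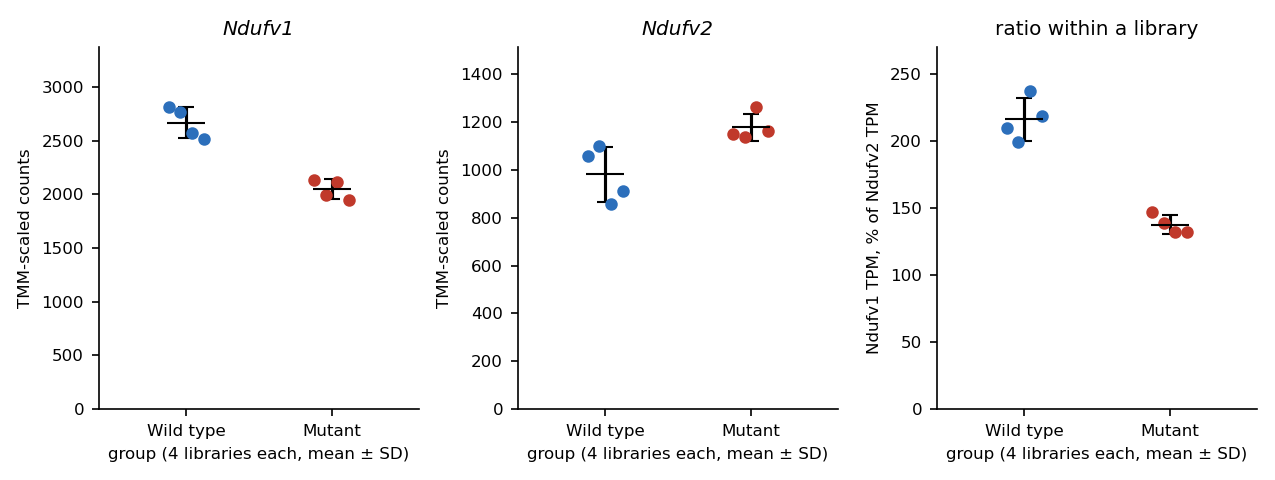
TMM-scaled counts of *Ndufv1* and *Ndufv2* in each library, and the TPM of *Ndufv1* as a percentage of that of *Ndufv2* in the same library, with the mean ± SD of 4 libraries per group (blue, Wild type; red, Mutant). *Ndufv1* is lower and *Ndufv2* higher in the Mutant libraries, and the ratio is at least 199% in the Wild type and at most 147% in the Mutant libraries.

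Among the nuclear-coded core subunits, which carry the redox centres and the quinone site, *Ndufs1* was higher by 0.28 ± 0.07 (adjusted p = 0.00968), *Ndufv2* was also higher and *Ndufv1* was lower. *Ndufs3*, *Ndufs7* and *Ndufs8* had fitted values of 0.13, -0.17 and 0.16 and did not pass. Of the 29 nuclear-coded accessory subunits 3 were higher and 2 lower, with a median of -0.00.

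*Ndufc2*, an accessory subunit of the membrane arm (chr7:97400003-97407802), rose most among them. It had 1248, 1230, 1145 and 1296 scaled counts in the Mutant and 887, 833, 757 and 853 in the Wild type libraries. The groups were far apart, at a 1.48-fold difference (log2 0.56 ± 0.08, adjusted p = 0.000243). *Ndufab1*, the mitochondrial acyl carrier protein, and *Ndufa10* were also higher, by 0.36 ± 0.09 and 0.24 ± 0.07. *Ndufa7* was lower, with 682, 753, 923 and 849 scaled counts against 1044, 1032, 942 and 1052. Its highest Mutant library lay just under the lowest Wild type library (-0.34 ± 0.10, adjusted p = 0.0173), and the call was lost without Mutant replicate 1 or Wild type replicate 1. *Ndufb3* (-0.29 ± 0.11, adjusted p = 0.0460) overlapped between the groups and lost its call under 9 of the 17 alternatives, DESeq2 included.

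The assembly factors of complex I help build it and are not part of the finished enzyme. Of the 8 measured, 1 was higher and 2 were lower. *Ndufaf2* (chr13:108052590-108158625) had 344, 301, 345 and 385 scaled counts in the Mutant and 224, 191, 185 and 213 in the Wild type libraries, a log2 fold change of 0.76 ± 0.12 (adjusted p = 0.000613), the largest outside the copied mitochondrial stretch. Of the windows of its annotated transcripts, which are longer than the 679 bases counted, 62.4% also occur in transcripts of other genes. *Ndufaf7*, a methyltransferase, had 360, 499, 498 and 378 against 609, 630, 597 and 688 (-0.54 ± 0.13, adjusted p = 0.00546). *Ndufaf3* had 132, 134, 165 and 122 against 205, 215, 198 and 186 (-0.54 ± 0.14, adjusted p = 0.00874). None of these 3 genes overlapped between the groups, and all 3 kept their call under all 17 alternatives. The other 5, *Ndufaf1*, *Ndufaf4*, *Ndufaf5*, *Ndufaf6* and *Ndufaf8*, had fitted values from -0.17 to 0.20 with standard errors of 0.15 to 0.26.

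Complex II, which is coded in the nucleus throughout and also serves the tricarboxylic acid cycle, had no gene past the test. The flavoprotein *Sdha* had 4980, 5324, 5157 and 5011 scaled counts in the Mutant and 5045, 5330, 4559 and 4431 in the Wild type libraries. Its groups overlapped (0.08 ± 0.07, adjusted p = 0.408). The iron-sulfur subunit *Sdhb* and the membrane anchors *Sdhc* and *Sdhd* had fitted values of 0.11 ± 0.08, 0.06 ± 0.07 and 0.10 ± 0.08 and also overlapped. All 4 fitted values were between 0.06 and 0.11, and that of *Sdhc* was -0.0065 with upper quartile normalization.

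In complex III the large core subunit *Uqcrc1* (0.21 ± 0.08, adjusted p = 0.0467) and the small accessory subunit *Uqcrq* (0.30 ± 0.10, adjusted p = 0.0258) were higher. Both calls were lost without Wild type replicate 3 or 4, among other alternatives. The Rieske iron-sulfur protein *Uqcrfs1* had 1773, 1696, 1649 and 1434 scaled counts in the Mutant and 1358, 1478, 1343 and 1554 in the Wild type libraries. Mutant replicate 4 fell among the Wild type libraries (0.19 ± 0.08, adjusted p = 0.0848), and without it the gene passed the test (0.27, adjusted p = 0.0135).

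Several subunits of complex IV have isoforms that replace each other by tissue or oxygen supply. Per length, *Cox4i2*, the form induced by low oxygen, reached 1.33% ± 0.486 of *Cox4i1* in the Mutant and 1.72% ± 0.362 in the Wild type libraries (SD, n = 4 each). The TPM of *Cox6b2* was 1.64% ± 0.636 and 2.47% ± 0.758 of that of *Cox6b1*, and the TPM of *Cox7a1*, the muscle form, was 6.21% ± 1.58 and 4.71% ± 1.44 of that of *Cox7a2*. The TPM of *Ndufa4l2* was 26.9% ± 8.24 and 22.8% ± 8.82 of that of *Ndufa4*, a larger share than in the other 3 pairs. The ranges of the groups overlapped in each case, and none of *Cox4i2*, *Cox6b2* and *Cox7a1* passed the test. *Ndufa4l2*, a relative of *Ndufa4* known from pericytes and low oxygen, had 271, 311, 428 and 218 scaled counts in the Mutant and 203, 307, 332 and 149 in the Wild type libraries. The spread within each group was wider than the difference between them (0.30 ± 0.27, adjusted p = 0.386). The highest library of each group for *Ndufa4l2*, replicate 3, was also the one with the largest sum of pericyte and smooth muscle markers (45804 and 46297 scaled counts), and their part in its level was not tested.

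The subunits past the test in complex IV were 4 small nuclear-coded ones and the mitochondrial core subunits *mt-Co1* and *mt-Co3*, described further on. *Cox7b* had 943, 916, 1059 and 1234 scaled counts in the Mutant and 759, 769, 701 and 850 in the Wild type libraries (0.43 ± 0.11, adjusted p = 0.00784). *Cox7c* (0.35 ± 0.08), *Cox6b1* (0.31 ± 0.09) and *Cox8a* (0.29 ± 0.08) were higher as well, at adjusted p-values of 0.00493, 0.0174 and 0.0162. *Cox7b*, *Cox7c* and *Cox8a* did not overlap between the groups, and *Cox6b1* did. Of the *Cox7c* windows, 16.2% occur in other transcripts, and *Cox8a* lost its call with upper quartile normalization. *Cox4i1*, an early-assembling subunit, had 7530, 7368, 7964 and 9014 against 7544, 7012, 7010 and 7050 and did not pass (0.16 ± 0.08, adjusted p = 0.130). *Cox6a1*, *Cox7a2*, *Cox7a2l* and *Ndufa4* had fitted values from -0.06 to 0.13 and did not pass either.

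The mitochondrial-coded genes fell into 2 classes by their counts. Per 1000 bases, *mt-Co1*, the catalytic core of complex IV, had 114525 to 189032 counts in the 8 libraries, whereas *mt-Co2*, a core subunit of the same complex, had 11.7 to 38.0. Along the mitochondrial genome *mt-Co2*, *mt-Atp6*, *mt-Co3*, *mt-Nd3* and *mt-Nd4l* lie in 1 stretch (MT:7013-10173), and each of these 5 genes had between 8 and 226 counts per library. Between 97.6% and 99.9% of their 100-base windows occur letter for letter in transcripts of 1 stretch of chromosome 1 (chr1:24611535-24616197), where 7 unprocessed pseudogenes copy this part of the mitochondrial genome. The 7 pseudogenes had 0 to 34 counts per library. How reads that map to several places were treated is not given in the sources used here. The copied genes *mt-Nd4* and *mt-Co1* share 60.8% and 30.8% of their windows, and the others 0% to 3.19%. *mt-Atp8*, which lies in the same stretch between *mt-Co2* and *mt-Atp6* and is not in the normalized set, had 2 to 11 counts per library (9.80 to 53.9 per 1000 bases) and shares 0% of its windows. The search covered annotated transcripts, and the 7 pseudogenes leave a gap between the copies of *mt-Co2* and *mt-Atp6*. The part of the copy in the low counts was not tested.

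The closeness of the copy is shown by the first 60 bases of *mt-Nd3* (MT:9459-9518, plus strand) and of its pseudogene *Gm28438* (chr1:24613060-24613119, minus strand), from GENCODE for GRCm38, with the base that differs in capitals.
mt-Nd3: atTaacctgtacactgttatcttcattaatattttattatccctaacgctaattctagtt
Gm28438: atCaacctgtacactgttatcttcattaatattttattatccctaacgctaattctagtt
The difference is T3C, counted from the first base of *mt-Nd3*, and it is the only one in the 345 bases that align (99.7% identity). The copies of *mt-Co2*, *mt-Atp6*, *mt-Co3* and *mt-Nd4l* are identical to them over the 294 to 783 bases that align.

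**Figure D5:**
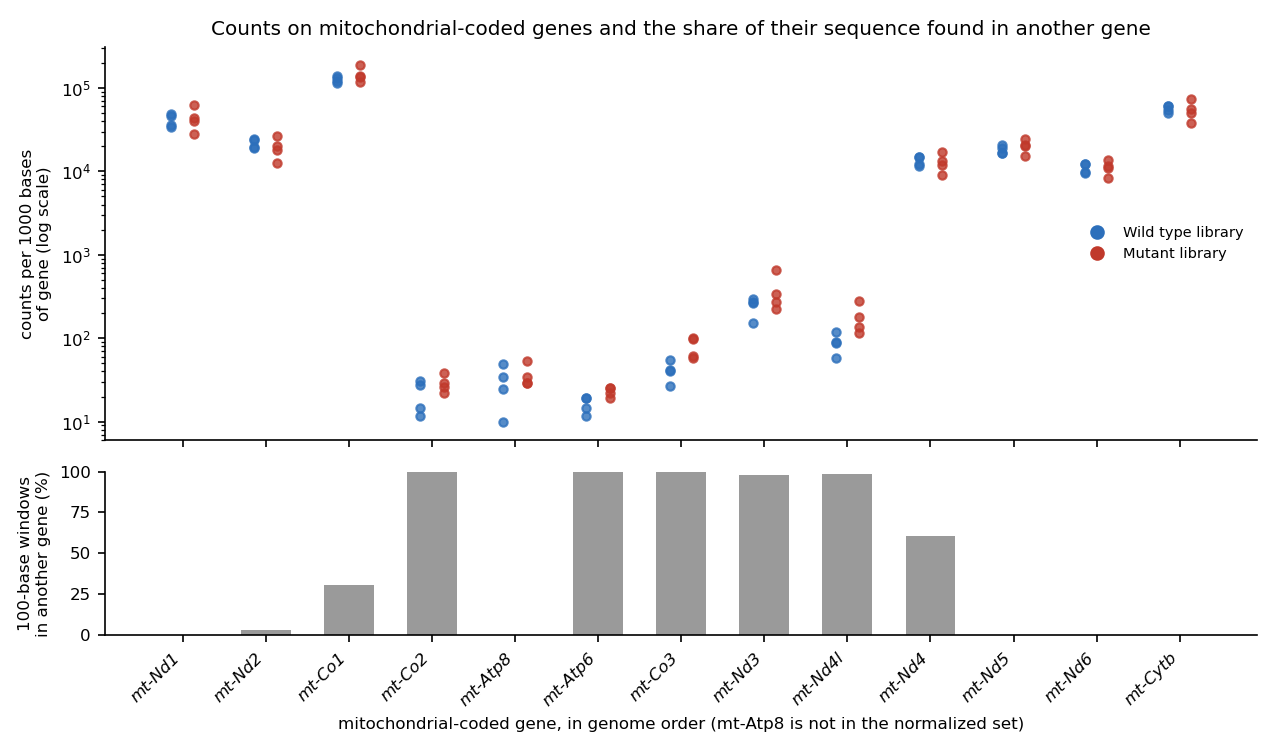
Counts per 1000 bases of the 12 mitochondrial-coded genes and *mt-Atp8* in each library on a log scale (top; blue, Wild type; red, Mutant), in genome order, and the percentage of 100-base windows of each gene that is also found in transcripts of another gene (bottom). The 5 genes with 97.6% to 99.9% of shared windows have counts per base far below those of the 7 genes outside the stretch in both groups, and *mt-Atp8* is as low with 0% shared.

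Both genes past 2-fold belong to these 5. *mt-Nd4l*, a membrane subunit of complex I that also overlaps the start of *mt-Nd4*, had 51.9, 59.7, 37.7 and 72.2 scaled counts in the Mutant and 15.7, 24.4, 23.3 and 36.9 in the Wild type libraries (1.15 ± 0.30, adjusted p = 0.0108). *mt-Co3*, a core subunit of complex IV, had 57.0, 84.0, 53.2 and 68.8 against 19.3, 30.1, 37.2 and 34.8 (1.11 ± 0.26, adjusted p = 0.00545). The groups did not overlap for either gene. Without Wild type replicate 1, the lowest library for both, the log2 fold changes were 0.999 and 0.97, and neither was past 2-fold. Without Mutant replicate 2 that of *mt-Co3* was 0.98 and that of *mt-Nd4l* 1.11. *mt-Nd3* (0.72 ± 0.28), *mt-Atp6* (0.69 ± 0.32) and *mt-Co2* (0.61 ± 0.36) did not pass, at adjusted p-values of 0.0561, 0.102 and 0.195.

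Among the 7 mitochondrial-coded genes outside that stretch, 2 were higher and 0 lower (0 at an unadjusted p under 0.05, 0 by DESeq2), with a median of 0.19. *mt-Co1* had 228255, 231675, 235272 and 254215 scaled counts in the Mutant and 173237, 166302, 183967 and 216712 in the Wild type libraries. The groups did not overlap (0.36 ± 0.10, adjusted p = 0.0133), and the adjusted p was 0.0506 without Wild type replicate 2, its lowest library. *mt-Nd5*, an antiporter-like subunit of complex I, had 35036, 40617, 41368 and 38541 against 27960, 28658, 32455 and 36162. Its lowest Mutant library lay below Wild type replicate 4 (0.31 ± 0.10, adjusted p = 0.0261). The call was lost under 5 of the 17 alternatives, among them without Mutant replicate 2 or 3 or Wild type replicate 1 or 2.

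*mt-Nd1*, *mt-Nd2*, *mt-Nd4* and *mt-Nd6* of complex I and *mt-Cytb* of complex III overlapped between the groups and did not pass. Their fitted values were 0.22 ± 0.16, -0.02 ± 0.15, 0.09 ± 0.13, 0.19 ± 0.12 and 0.12 ± 0.12 in that order. Wild type replicate 4 was the highest Wild type library for each of these 5 genes, and Mutant replicate 1 the lowest Mutant library. The transcripts of the mitochondrial genome are cut from long shared precursors, and *mt-Nd6* comes from the opposite strand to the rest.

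As a share of all counts, the mitochondrial-coded genes took 1.43% ± 0.149 (SD, n = 4) in the Mutant and 1.23% ± 0.173 in the Wild type libraries, and the ranges overlapped at 1.24% to 1.58% and 1.07% to 1.45%. The 89 nuclear-coded genes took 0.518% ± 0.0276 and 0.482% ± 0.0136, at 0.491% to 0.547% and 0.466% to 0.497%, which overlapped too. In scaled counts the nuclear-coded sums were apart, at 152366 to 162818 in the Mutant and 132813 to 146786 in the Wild type libraries, and in TPM they overlapped, at 11081 ± 634 and 10679 ± 328 (SD, n = 4 each). Whether the nuclear-coded sum separated the groups therefore depended on the scale. The complex V sum, in which *Atp5b* and *Atp5a1* hold much of the counts, was apart on each of the 3 scales. As a share of counts the complex V sum was 0.213% to 0.235% in the Mutant and 0.190% to 0.198% in the Wild type libraries.

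The genes around the respiratory chain were taken from lists of related function, whose counts stand beside the 21.5% of all genes tested that were higher and the 22.9% that were lower. Of 18 tricarboxylic acid cycle genes, which supply the NADH and succinate, 7 were higher (38.9%) and 0 lower (1 lower at an unadjusted p under 0.05, 0 by DESeq2), with a median of 0.14. The largest rise was that of *Dlst*, a subunit of the 2-oxoglutarate dehydrogenase complex, with 3274, 3165, 3291 and 3626 scaled counts in the Mutant and 2213, 2335, 2333 and 2278 in the Wild type libraries (0.54 ± 0.06, adjusted p = 0.0001). Its groups were far apart.

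Of 20 genes of electron carriers and coenzyme Q synthesis, 2 were higher (10%) and 5 lower (25%), with a median of -0.08, and the share that was lower was near that of all genes. *Cycs*, the cytochrome c that links complexes III and IV, had 1787, 1813, 1969 and 2274 against 1471, 1430, 1297 and 1350 scaled counts (0.50 ± 0.09, adjusted p = 0.00114). *Gpd2*, which feeds electrons from glycerol 3-phosphate to coenzyme Q, had 2529, 3596, 3338 and 2463 against 5956, 5919, 5044 and 6052 (-0.95 ± 0.13, adjusted p = 0.000242). *Cycs* was thus higher and *Gpd2* lower in every Mutant library. The other genes past the test, *Coq3* (higher) and *Coq2*, *Coq9*, *Coq10a* and *Etfdh* (lower), were named after their values were seen. The first 4 serve coenzyme Q synthesis or handling, and *Etfdh* feeds electrons from fatty acid oxidation to coenzyme Q.

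Of 39 assembly factors outside the symbol rule 2 were higher (5.13%) and 6 lower (15.4%), with a median of -0.17, and both shares were below those of all genes. The largest fall was that of *Tmem126b*, a factor for the membrane arm of complex I, with 153, 145, 145 and 145 scaled counts against 299, 234, 215 and 238 (-0.75 ± 0.13, adjusted p = 0.0013). The largest rise was that of *Cox17*, the copper chaperone of complex IV, with 233, 233, 224 and 219 against 202, 165, 158 and 169 (0.39 ± 0.12, adjusted p = 0.0242). Neither gene overlapped between the groups.

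Of 25 regulators of mitochondrial DNA and biogenesis 5 were higher (20%) and 1 lower (4%), with a median of -0.00, and the share that was higher was near that of all genes. *Pprc1*, a coactivator of the PGC-1 family, had 3693, 3461, 4003 and 3017 scaled counts against 2149, 2234, 2318 and 1964 (0.71 ± 0.09, adjusted p = 0.000196). *Polg2*, the accessory subunit of the mitochondrial DNA polymerase, had 351, 554, 851 and 414 against 1031, 931, 1202 and 1149 (-0.99 ± 0.23, adjusted p = 0.00609). Both were apart in all libraries. *Tfam*, which packages mitochondrial DNA and helps start its transcription and was named after its values were seen, was also higher (0.70 ± 0.11, adjusted p = 0.000591). The best known coactivator, *Ppargc1a*, was near the filter on low counts, at 22.0 ± 11.2 scaled counts in the Mutant and 35.7 ± 15.2 in the Wild type libraries (SD, n = 4 each), and did not pass.

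Promoters in the RefSeq table, from 250 bases before to 50 after the start site, were found for 72 of the 89 nuclear-coded genes and searched on both strands for motifs of factors known to act on this gene family. Each of the 72 genes gave 1 promoter, the one nearest its annotated 5′ end. The share of the table was taken over every promoter in it, and a gene can have more than 1, so the units differ. GCATGCGC (NRF1) was present in 16.7% of the 72 and in 2.71% of all 32851 promoters of the table. CCGGAAG (ETS factors, including GABP) was present in 23.6% and 8.86%, AAGGTCA (estrogen-related receptors) in 11.1% and 4.72%, and AAGATGGCG (YY1) in 9.72% and 1.40%. Of the 16 genes with a promoter that were higher, 2 held the NRF1 letters, 1 the receptor letters, 2 the ETS letters and 0 the YY1 letters. None of the 5 lower genes with a promoter held any of the 4. A match is a run of letters and not a measured binding site, and the NRF1 letters were in 2 of the 16 higher genes and in 12 of all 72.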

How the data were processed

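Brain EC RNA enriched on oligo(dT) beads was sequenced by the authors, who trimmed the reads (Trimmomatic) and aligned them to GRCm38 (STAR). The authors deposited whole-number read counts per gene for each of 8 libraries. They also deposited a normalized signal for 16889 genes, which is those counts divided by 1 DESeq2 factor per library (100% whole reads within 0.001 when multiplied back). The counting program, annotation, use of strand and treatment of multi-mapping reads are not given in the sources used here, and the kit does not mark strand, so overlapping genes on opposite strands are uncertain.

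Of 49315 identifiers, 49056 matched a symbol in GENCODE vM21. Groups came from the titles. Counts were tested in R 4.3.3 with edgeR 4.0.16 (TMM, filterByExpr with a minimum count of 10, glmQLFit, glmQLFTest, condition only). Adjusted p under 0.05, with or without a log2 fold change over 1 in size, was the threshold. TPM used the gene lengths of the count files. Sequence sharing was counted over 100-base windows of GENCODE transcripts. Counts for 16611 genes simulated from these libraries were tested too: 181 of 200 changed genes were recovered and 11 unchanged ones were called. The simulated log2 fold changes were 1 or 2 in size. Recovery of changes as small as those of most members was not tested. Each library had at least 24833373 counts, and errors are the spread between pups, from which counting error was not separated. No 2 libraries agreed within sampling noise. P-values measure the spread between these pups only.

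The members and lists were chosen with earlier results of these data known. Named with values were members past 2-fold, the 5 largest rises and 5 largest falls with a mean of at least 100 scaled counts in the higher group, all mitochondrial-coded members, the isoform families, complex II, *Uqcrfs1*, *Atp5a1* and *Atp5b*. In other lists these were the largest rise and fall past the test. One gene is not reported by name here. Other named genes were chosen after their values were seen, as was the group of 5 copied mitochondrial genes. The alternatives were DESeq2 1.42.0, other normalizations and filters, the replicate number or label prefix as a block, removal of a length trend, and each library left out.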

Additional observations from a re-analysis of the deposited data

Results flagged for a closer look

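Among the 110 groups of 4 libraries examined for the named genes, 5 held a library whose gap to the nearest other exceeded the 95% limit for a gap relative to the range of its group (Dixon's test). Chance alone is expected to give about 1 in 20 groups, so this number is no more than that rate gives. *Atp5g1* was low in Wild type replicate 4, at 757 scaled counts, with the other 3 between 848 and 857. *Atp5g2* was low in Wild type replicate 3, at 1446, and its call depends on that library. *Cox4i1* was high in Wild type replicate 1, at 7544, with the others between 7010 and 7050. The remaining ones were in the copied mitochondrial stretch, where *mt-Co2* was low in Mutant replicate 2, at 16.6 scaled counts, and *mt-Nd3* was low in Wild type replicate 1, at 48.8.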

How the results depend on the processing

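Of the 31 genes past the test, 19 (16 higher, 3 lower) passed it in the same direction in every one of the 17 alternatives in which they were tested, and the other 12 lost it in at least 1. *mt-Co3* and *mt-Nd4l* were not tested under the filter of a mean of 100 counts. None of the 31 changed direction, and all 31 went in the direction of the fit within each of the 3 label prefixes, whose meaning the labels do not give. For genes whose groups did not overlap, which are most of the 31, the direction within a prefix was fixed by that and is no further support. DESeq2 also called 30 of them. The count of higher genes was 25, 28 with DESeq2, 17 with upper quartile normalization, 22 with no filter on low counts and 19 to 28 when 1 library was left out. The count of lower genes was 6, 9 with upper quartile normalization, and 3 (without Wild type replicate 1) to 6 when 1 library was left out. Upper quartile normalization moved the median of all genes from -0.02 to -0.09 and the counts of all genes to 18.6% higher and 27.1% lower. The count past 2-fold was 0 with a mean of at least 100 counts, since both genes were filtered out, and 0 to 2 when 1 library was left out. With upper quartile normalization the medians were 0.025 (complex II), 0.058 (complex III), 0.14 (complex V) and 0.031 (nuclear-coded). The mitochondrial-coded median was 0.19 with a mean of at least 100 counts. With 1 library left out it was 0.29 to 0.41, and that of complex III was 0.10 to 0.17. Signs that changed belonged to genes near 0. *Cox7a2l* and *Sdhc* were -0.018 and -0.0065 with upper quartile normalization, and with 1 library left out *Cox6a1* ran from -0.12 to 0.031 and *mt-Nd2* from -0.091 to 0.10. The causes of these shifts were not tested. Samples with the same replicate number did not deviate together in all pairs (r = 0.20, 0.21, 0.29 and 0.02), so the number was not treated as a pairing. Wild type pups were matched to Mutant pups by litter, which the labels do not give. Blocking on the prefix instead gave 29 higher and 6 lower genes. With the replicate block 28 genes were higher and 6 lower, 2 were past 2-fold, and *mt-Nd1* (0.22, adjusted p = 0.049) and *mt-Nd3* (0.70, adjusted p = 0.017) passed the test. Depth limits the genes of the copied stretch, with 8 to 226 counts per library.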
